A study of Mus musculus with 8 samples.

Results

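The genes described here are 7 factors that act on the processing of immunoglobulin (Ig) heavy chain RNA: Ell2, Pcf11, Cstf2, Cstf3, Cpsf3, Hnrnpf and Zfp318. They were chosen by name from the 41342 entries of the deposited gene table. All 7 members were found, and all 7 passed the filter on low counts that kept 14789 genes for testing.

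The Ig heavy chain pre-RNA of a B cell can be cut and polyadenylated at a proximal secretory site, which gives the secreted antibody, or spliced past it to the membrane exons, which gives the B cell receptor. Ell2 is an elongation factor that travels with RNA polymerase II and is known in plasma cells to favour the secretory site. Cstf2 (CstF-64) and Cstf3 (CstF-77) are subunits of the cleavage stimulation factor, Cpsf3 (CPSF-73) is the endonuclease that cuts the pre-RNA, and Pcf11 is a subunit of cleavage factor II that also acts in termination. Hnrnpf (hnRNP F) binds G-rich RNA and is known to compete with CstF-64 at the secretory site. Zfp318 is a zinc finger protein of mature B cells that is needed to transcribe and splice through the mu-delta intergenic region, and so for IgD.

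RNA was measured in CD43-negative splenic B cells of mice homozygous for the 3'RR deletion, the hs3b-hs4 deletion or the 3'PAL deletion and of wild-type mice, all on the mixed background that the labels spell 129/C58BL/6. The 3' regulatory region (3'RR) is the enhancer cluster downstream of the Ig heavy chain genes, hs3b and hs4 are enhancers in it, and the 3'PAL deletion is given by name alone. Stimulated cells were cultured for 48 h with 5 µg/mL lipopolysaccharide (LPS), which activates B cells through the receptor TLR4, and resting cells were used fresh. Each of the 4 genotypes gave 1 library per state from a pool of cells of 4 animals, so that no genotype has a replicate within a state. The labels give no age.

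To show what these factors act on, the last 30 bases of the annotated heavy chain transcripts are given 5′ to 3′ from GENCODE vM21 (GRCm38, chromosome 12, minus strand), with the polyadenylation hexamer in capitals, which is the canonical AATAAA or, in Ighd, the common variant spelled ATTAAA.
Ighm secreted form, chr12:113420741-113420770: tagaAATAAAaaaaatccattcaaacgtca
Ighm membrane form, chr12:113418558-113418587: tggaAATAAAtactttatcttgtgaactca
Ighd membrane form, chr12:113406604-113406633: gcctcaATTAAAtgctttcttttataagaa
Both Ighm ends hold the canonical hexamer with its first base 26 bases from the end, and the Ighd end holds the variant with its first base 24 bases from the end.

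Total counts ran from 17883683 in the wild-type resting library to 28785192, and the entry AY036118 held 1.94% of the wild-type resting counts and at most 0.0842% elsewhere. All 6 B cell markers were detected in every library, at a summed 2321 to 2928 CPM in stimulated and 3014 to 3147 CPM in resting cells. Erythroid markers summed to 9.70 to 224 CPM in stimulated and 2869 to 19836 CPM in resting cells, and 7 monocyte and macrophage markers to 6.10 to 10.2 CPM in stimulated and 209 to 1009 CPM in resting cells. The summed markers were at most 0.372 CPM in stimulated and 43.3 CPM in resting cells for T cells. For NK cells the highest sum was 0.223 CPM in stimulated and 1.20 CPM in resting cells, and for neutrophils 0.0793 CPM in stimulated and 3.21 CPM in resting cells. Dendritic cell markers summed to 46.3 to 52.5 CPM in stimulated and 53.4 to 165 CPM in resting cells. Most of the stimulated sum was Flt3 (43.6 to 50.7 CPM), which rose, while Itgax, Zbtb46 and Siglech fell. Markers of megakaryocytes and platelets summed to 1.13 to 1.43 CPM in stimulated and 11.9 to 57.2 CPM in resting cells. Those of endothelial and stromal cells summed to 63.7 to 72.8 CPM in stimulated and 140.4 to 149.7 CPM in resting cells. Nearly all of this was Pecam1, at 63.5 to 72.6 CPM in stimulated and 139 to 148 CPM in resting cells. Of 6 plasma cell markers, which activated B cells can also express, Prdm1 (log2 fold change 2.68), Xbp1 (2.29) and Sdc1 (0.93) rose on stimulation, Irf4 fell (-0.80) and 2 did not pass. The part of these other cell types in the changes of the 7 factors was not tested. In the table's annotation, exons of Cstf2 share 399 bases with the opposite-strand gene Nox1 and 82 with Mir3112, Pcf11 shares 136 with the opposite-strand Gm26944 and Hnrnpf 99 with the opposite-strand 4933440N22Rik, so part of their reads could belong to these neighbours.

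Of the 7 factors, 5 rose in stimulated cells and 2 fell. The 5 that rose were Ell2, Cstf2, Cstf3, Cpsf3 and Hnrnpf, and Pcf11 and Zfp318 fell, in edgeR's quasi-likelihood test with genotype as a term. In the same test 34.5% of all 14789 genes rose and 35.2% fell, so a change on stimulation is common among all genes. The stimulated and resting values did not overlap for any of the 7 factors. The share of all genes without such overlap was not counted, so this does not set the factors apart. Levels are CPM, counts scaled to library size and by TMM factors (trimmed mean of M values). In libraries of mixed cells, fewer cells of a type and less RNA per cell cannot be told apart.

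**Figure D1:**
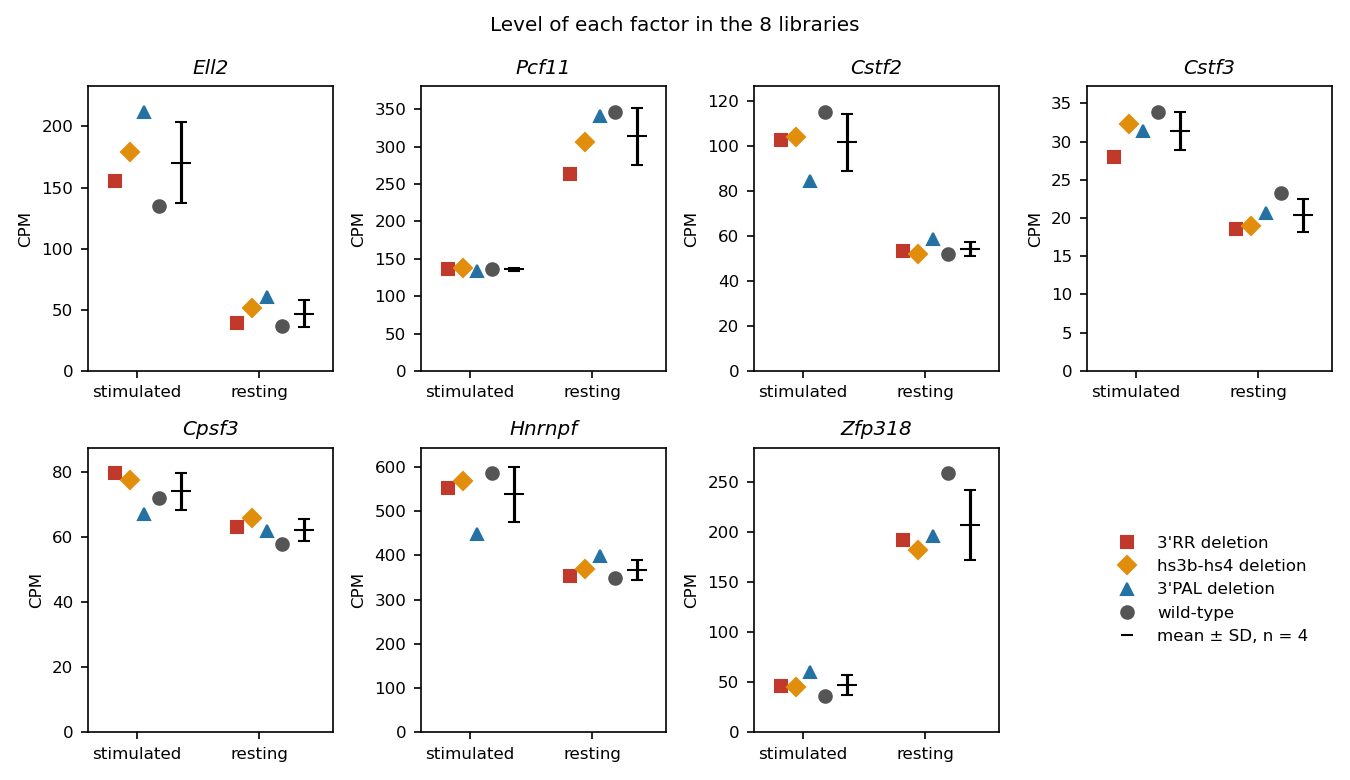
Level of each factor (CPM, vertical axis from 0) in the 4 stimulated and the 4 resting libraries, with 1 point per library, the genotype given by colour and shape, and the mean ± SD over the 4 libraries of a state beside the points. Ell2 sits at 135 to 212 CPM in stimulated and 37.1 to 60.2 CPM in resting cells, and Zfp318 at 36.1 to 60.6 CPM in stimulated and 182 to 258 CPM in resting cells.

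Ell2 (ENSMUSG00000001542) lies on the plus strand of chromosome 13 and had the largest rise of the 7. It had 155 CPM in 3'RR deletion, 179 CPM in hs3b-hs4 deletion, 212 CPM in 3'PAL deletion and 135 CPM in wild-type stimulated cells, against 38.8 CPM in 3'RR deletion, 51.1 CPM in hs3b-hs4 deletion, 60.2 CPM in 3'PAL deletion and 37.1 CPM in wild-type resting cells. In both states the 3'PAL deletion library was the highest and the wild-type library the lowest. In resting cells wild-type was not the lowest under other settings. The 3'RR deletion stood at 0.985 of wild-type with library size alone and at 0.968 with kallisto counts. The log2 fold change on stimulation was 1.87 ± 0.0788 (SE, adjusted p = 6.47e-06), and the ratio of stimulated to resting level was 4.00 with the 3'RR deletion, 3.50 with the hs3b-hs4 deletion, 3.52 with the 3'PAL deletion and 3.63 in wild-type cells. The call held in all 15 alternative settings of the test.

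Pcf11 (ENSMUSG00000041328, chromosome 7, minus strand) moved the other way. It had 137 CPM in 3'RR deletion, 138 CPM in hs3b-hs4 deletion, 134 CPM in 3'PAL deletion and 136 CPM in wild-type stimulated cells, against 263 CPM in 3'RR deletion, 306 CPM in hs3b-hs4 deletion, 340.4 CPM in 3'PAL deletion and 347 CPM in wild-type resting cells. The 4 stimulated libraries lay close together at 136 ± 1.82 CPM, while the resting ones averaged 314 ± 38.2 CPM (SD, n = 4 each). The log2 fold change was -1.20 ± 0.0980 (SE, adjusted p = 4.54e-05).

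Of the cleavage stimulation factor subunits, Cstf2 (ENSMUSG00000031256, chromosome X, plus strand) had 103 CPM in 3'RR deletion, 104 CPM in hs3b-hs4 deletion, 84.4 CPM in 3'PAL deletion and 115 CPM in wild-type stimulated cells, against 53.2 CPM in 3'RR deletion, 52.0 CPM in hs3b-hs4 deletion, 58.6 CPM in 3'PAL deletion and 52.1 CPM in wild-type resting cells. Its log2 fold change was 0.90 ± 0.111 (SE, adjusted p = 0.000297). The 3'PAL deletion library was the lowest of the stimulated and the highest of the resting libraries, and its ratio of 1.44 was the smallest of the 4 genotypes, against 2.21 in wild-type cells. With scaling by library size alone the 3'PAL deletion was not the highest resting library, at 0.992 of wild-type.

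Cstf3 (ENSMUSG00000027176, chromosome 2, plus strand) had 28.0 CPM in 3'RR deletion, 32.3 CPM in hs3b-hs4 deletion, 31.3 CPM in 3'PAL deletion and 33.9 CPM in wild-type stimulated cells, against 18.6 CPM in 3'RR deletion, 18.9 CPM in hs3b-hs4 deletion, 20.7 CPM in 3'PAL deletion and 23.3 CPM in wild-type resting cells. Wild-type was the highest and the 3'RR deletion the lowest in both states. The log2 fold change was 0.63 ± 0.0846 (SE, adjusted p = 0.000472), and the ratios ran from 1.46 in wild-type to 1.71 in hs3b-hs4 deletion cells.

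Cpsf3 (ENSMUSG00000054309, chromosome 12, plus strand), the endonuclease, changed least. It had 79.4 CPM in 3'RR deletion, 77.5 CPM in hs3b-hs4 deletion, 67.1 CPM in 3'PAL deletion and 71.9 CPM in wild-type stimulated cells, against 63.1 CPM in 3'RR deletion, 65.7 CPM in hs3b-hs4 deletion, 61.8 CPM in 3'PAL deletion and 57.7 CPM in wild-type resting cells. The lowest stimulated and the highest resting library were close, at 67.1 CPM and 65.7 CPM. The log2 fold change of 0.25 ± 0.0762 (SE) passed the test (adjusted p = 0.0207). The call was lost in DESeq2 (adjusted p = 0.0548) and when the 3'RR deletion (0.143), hs3b-hs4 deletion (0.0615) or wild-type (0.0572) stimulated library or the 3'RR deletion (0.0956), hs3b-hs4 deletion (0.0661) or wild-type (0.0605) resting library was left out, within a range of adjusted p from 0.00515 to 0.143 over the 15 alternatives.

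Hnrnpf (ENSMUSG00000042079, chromosome 6, plus strand) was the most abundant per kilobase of exon. It had 552 CPM in 3'RR deletion, 567 CPM in hs3b-hs4 deletion, 447 CPM in 3'PAL deletion and 585 CPM in wild-type stimulated cells, against 352 CPM in 3'RR deletion, 369 CPM in hs3b-hs4 deletion, 399 CPM in 3'PAL deletion and 349.5 CPM in wild-type resting cells. As with Cstf2, the 3'PAL deletion library was the lowest of the stimulated and the highest of the resting libraries, the second of which did not hold with library size alone, where its resting ratio to wild-type was 1.01, against 1.03 for the hs3b-hs4 deletion over wild-type. The log2 fold change was 0.54 ± 0.115 (SE, adjusted p = 0.0042), and the ratio was 1.12 in 3'PAL deletion cells, against 1.67 in wild-type cells.

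Zfp318 (ENSMUSG00000015597, chromosome 17, plus strand) had the largest fall. It had 46.3 CPM in 3'RR deletion, 45.0 CPM in hs3b-hs4 deletion, 60.6 CPM in 3'PAL deletion and 36.1 CPM in wild-type stimulated cells, against 192 CPM in 3'RR deletion, 182 CPM in hs3b-hs4 deletion, 196 CPM in 3'PAL deletion and 258 CPM in wild-type resting cells. The wild-type library was the lowest of the stimulated and the highest of the resting libraries. The log2 fold change was -2.14 ± 0.181 (SE, adjusted p = 5.16e-05), with ratios of 0.242 for the 3'RR deletion, 0.248 for the hs3b-hs4 deletion and 0.309 for the 3'PAL deletion, against 0.140 in wild-type cells. Over the 15 alternatives, which include leaving out either wild-type library, its log2 fold change ran from -2.29 to -1.91.

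**Figure D2:**
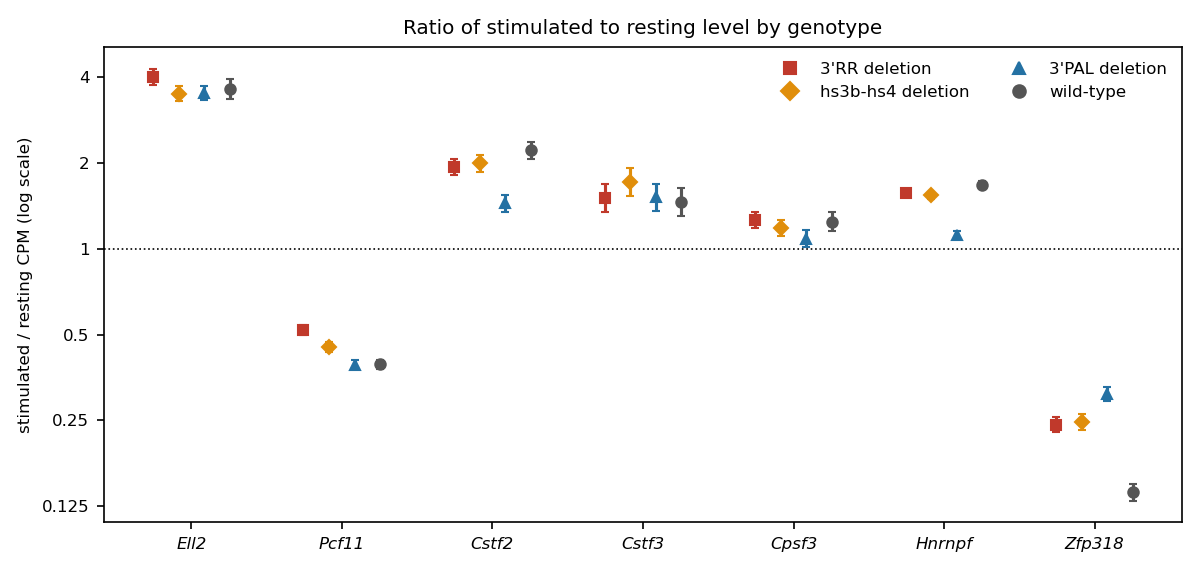
Ratio of stimulated to resting CPM (vertical axis, log scale) of each factor in the 4 genotypes, with bars for the 95% interval from counting error alone. Zfp318 stands at 0.140 in wild-type and at 0.242 to 0.309 in the 3 mutants, and the 3'PAL deletion has the smallest ratio for Cstf2, Cpsf3 and Hnrnpf.

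The promoters of Ell2 and Zfp318, which moved most in opposite directions, are given from RefSeq (GRCm38.p6), 250 bases before to 50 after the start, with matches in capitals on either strand. The motifs searched were the CCAAT box (letters CCAAT), the TATA box (letters TATAAA) and the GC box (letters GGGCGG).
Ell2, plus strand, chr13:75707234-75707533: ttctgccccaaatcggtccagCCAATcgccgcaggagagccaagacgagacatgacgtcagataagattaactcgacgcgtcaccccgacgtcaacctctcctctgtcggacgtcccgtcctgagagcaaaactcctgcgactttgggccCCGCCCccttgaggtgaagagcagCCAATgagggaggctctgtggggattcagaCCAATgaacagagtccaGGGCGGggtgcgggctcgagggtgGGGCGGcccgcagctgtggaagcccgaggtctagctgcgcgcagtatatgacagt
Zfp318, plus strand, chr17:46383516-46383815: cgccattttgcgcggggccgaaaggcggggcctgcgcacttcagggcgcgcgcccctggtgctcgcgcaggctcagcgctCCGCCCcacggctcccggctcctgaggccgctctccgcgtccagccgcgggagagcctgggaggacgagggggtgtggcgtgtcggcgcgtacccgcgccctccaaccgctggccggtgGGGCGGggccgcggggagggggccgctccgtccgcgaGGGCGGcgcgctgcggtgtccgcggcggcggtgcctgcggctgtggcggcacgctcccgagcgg
The Ell2 promoter held 3 CCAAT boxes and 3 GC boxes, and the Zfp318 promoter held 0 and 3. None of the 10 promoters listed for the 7 factors held a TATA box, against 13.6% of the 32851 promoters searched, while 37.4% of these held a CCAAT box and 35.7% a GC box. The GC content was 61.3% for the Ell2 and 80.0% for the Zfp318 promoter, against a median of 52.7%. A match to such letters is a description of the window and not a binding site.

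Levels of different genes were compared per kilobase of exon. In stimulated cells the order was Hnrnpf (176 ± 20.3), Ell2 (46.7 ± 9.10), Cpsf3 (28.9 ± 2.19), Pcf11 (21.2 ± 0.284), Cstf2 (11.1 ± 1.38), Zfp318 (5.47 ± 1.18) and Cstf3 (5.34 ± 0.424), in CPM per kilobase (SD, n = 4). In resting cells it was Hnrnpf (121 ± 7.50), Pcf11 (49.0 ± 5.96), Cpsf3 (24.3 ± 1.30), Zfp318 (24.1 ± 4.04), Ell2 (12.8 ± 2.98), Cstf2 (5.88 ± 0.340) and Cstf3 (3.47 ± 0.363). Among neighbours in these orders, the library values overlapped only for Zfp318 and Cstf3 in stimulated cells and for Cpsf3 and Zfp318 in resting cells. By this measure Ell2 stood next to Hnrnpf in stimulated cells and between Zfp318 and Cstf2 in resting cells. The length used covers all annotated exons of a gene. For Cstf3 it was 5879 bases, against 2817 in its long coding transcript, and for Cstf2 it also exceeded that of the main transcript. Their values per kilobase are therefore lower than with the main transcript's length. The orders and overlaps hold for the length used and can differ with another, which was not tested.

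The 3 genes whose levels over the 8 libraries were most like those of Ell2 were Sec61a1, a subunit of the endoplasmic reticulum translocon (Pearson r = 0.988), Srpr, the receptor of the signal recognition particle (r = 0.988), and Lpxn (r = 0.988). For Zfp318 they were Trim39 (r = 0.997), the nuclear receptor Nr1h2 (r = 0.997) and Iqsec1 (r = 0.996). The measure was taken on log2 CPM among 4275 well expressed genes. The 8 points share the split by state, so these values describe the libraries and were not tested.

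None of the 7 factors passed the test in any mutant over both states. In these fits 1.88% of the genes were called for the 3'RR deletion, 0.135% for the hs3b-hs4 deletion and 0.514% for the 3'PAL deletion over wild-type. Ell2 came nearest: its log2 fold change was 0.68 ± 0.109 (SE) in the 3'PAL deletion (adjusted p = 0.065), 0.44 ± 0.109 in the hs3b-hs4 deletion (adjusted p = 0.298) and 0.14 ± 0.109 in the 3'RR deletion (adjusted p = 0.642). For the 3'PAL deletion, Ell2 passed in DESeq2 (adjusted p = 0.000671) and in edgeR with no filter on low counts (adjusted p = 0.0308), within a range from 0.000671 to 0.328 over 14 alternatives. The fit takes a mutant's change to be the same in both states, and the 3 mutants share the wild-type libraries.

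The erythroid, plasma cell and B cell marker sums shared the lowest library with Ell2, wild-type in both states, but not the order of the mutants. The B cell sum was 2321 CPM in wild-type and 2503 to 2928 CPM in mutant stimulated cells. In resting cells it was 3014 CPM in wild-type and 3052 to 3147 CPM in the mutants. The other lists did not share it in both states. In stimulated cells wild-type was also the lowest for monocytes and macrophages, T cells, megakaryocytes and platelets, and endothelial and stromal cells. In resting cells the 3'PAL deletion library was the lowest for these lists and for dendritic cells. The summed level of 6 erythroid markers was 142 CPM in 3'RR deletion, 38.6 CPM in hs3b-hs4 deletion, 224 CPM in 3'PAL deletion and 9.70 CPM in wild-type stimulated cells, and it was 12385 CPM in 3'RR deletion, 9798 CPM in hs3b-hs4 deletion, 19836 CPM in 3'PAL deletion and 2869 CPM in wild-type resting cells. That of 6 plasma cell markers was 2115 CPM in 3'RR deletion, 1379 CPM in hs3b-hs4 deletion, 1571 CPM in 3'PAL deletion and 970.5 CPM in wild-type stimulated cells, and 1019 CPM in 3'RR deletion, 1829 CPM in hs3b-hs4 deletion, 1633 CPM in 3'PAL deletion and 956 CPM in wild-type resting cells. Both lists, like the B cell list and Ell2 in TMM-scaled CPM, were lowest in wild-type in each state. The Ell2 minimum in resting cells did not hold with library size alone or with kallisto counts. Ell2 was higher in the hs3b-hs4 deletion than in the 3'RR deletion in both states. The erythroid sum was lower there in both states. The plasma cell sum was lower there in stimulated cells and higher in resting cells. Irf4, Igj and Xbp1 held most of the plasma cell sum in both states. The part of these cell types in the Ell2 values was not tested.

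Within a state, each mutant library was set against the wild-type library with no test, and intervals cover counting error alone. None of the 42 ratios of the 7 factors reached 2-fold, and they ran from 0.704 to 1.68. Among all genes tested in stimulated cells, 1.99% were past 2-fold, with at least 10 CPM in the higher library, for the 3'RR deletion, 0.913% for the hs3b-hs4 deletion and 1.91% for the 3'PAL deletion. In resting cells it was 3.56% for the 3'RR deletion, 2.29% for the hs3b-hs4 deletion and 2.24% for the 3'PAL deletion. The interval lay above 1 for 15 of the 42 ratios and below 1 for 15. The share of all genes with intervals clear of 1 was not counted, so these counts do not set the factors apart.

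In stimulated cells the Ell2 ratio to wild-type was 1.15 for the 3'RR deletion, 1.33 for the hs3b-hs4 deletion and 1.57 for the 3'PAL deletion. In resting cells it was 1.05 for the 3'RR deletion, 1.38 for the hs3b-hs4 deletion and 1.62 for the 3'PAL deletion. Only the 3'RR deletion ratio in resting cells had an interval that spans 1 (0.951 to 1.15). The Pcf11 ratios lay between 0.981 and 1.01 in stimulated cells, with intervals that span 1, but were 0.760 for the 3'RR deletion and 0.882 for the hs3b-hs4 deletion in resting cells. The Cstf3 ratios lay between 0.80 and 0.954, below 1 in all 6 pairs, which share the 2 wild-type libraries, and 3 of their 6 intervals span 1. Those of Cpsf3 lay between 0.933 and 1.14.

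The Zfp318 ratios turned with the state in all 3 mutants. In stimulated cells they were 1.28 for the 3'RR deletion, 1.25 for the hs3b-hs4 deletion and 1.68 for the 3'PAL deletion. In resting cells they were 0.742 for the 3'RR deletion, 0.704 for the hs3b-hs4 deletion and 0.759 for the 3'PAL deletion, and none of the 6 intervals spans 1. All 3 mutants share the 2 wild-type libraries. In a fit added after this was seen, with a term for stimulation in the 3 mutants, the log2 response of Zfp318 was higher by 0.92 ± 0.214 (SE) in the mutants than in wild-type, with an unadjusted p = 0.0049 and an adjusted p = 0.863 in edgeR. That fit has 2 residual degrees of freedom and called 0 of the 14789 genes (0%), with 784 at an unadjusted p under 0.05.

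**Figure D3:**
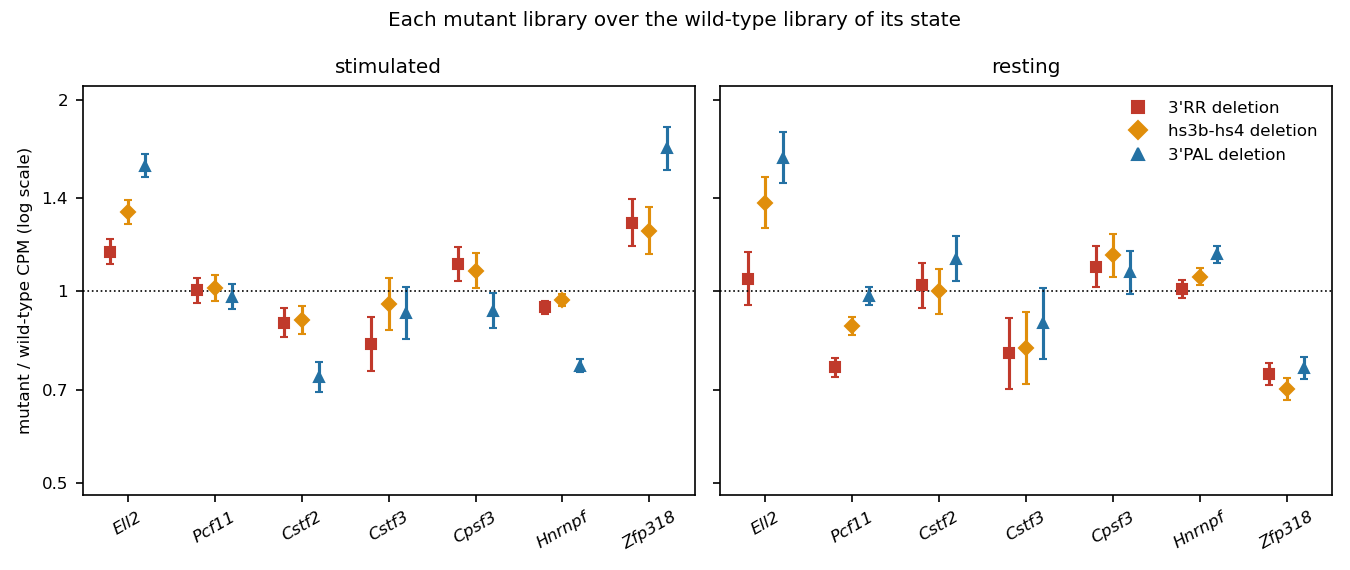
Ratio of each mutant library to the wild-type library of the same state (vertical axis, log scale) for the 7 factors, with stimulated cells left and resting cells right and bars for the 95% interval from counting error alone. The 3 Zfp318 ratios lie above 1 in stimulated cells (1.25 to 1.68) and below 1 in resting cells (0.704 to 0.759).

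Genotypes lacking hs3b and hs4 (3'RR deletion and hs3b-hs4 deletion) were also compared with those that keep them (3'PAL deletion and wild-type), with different genotypes standing as the 2 libraries of a group. No factor passed, and edgeR called 0 of 14789 genes (0%) in stimulated cells, in resting cells and for the interaction. At an unadjusted p under 0.05 there were 394 genes in stimulated cells, 869 in resting cells and 307 for the interaction, and DESeq2 called 7 in stimulated cells, 69 in resting cells and 2 for the interaction. That interaction was fitted without a genotype term. With one, an alternative added after seeing the data, edgeR again called 0 genes (416 at an unadjusted p under 0.05), and the SE of the Ell2 interaction was 0.175, against 0.422 without the term. The log2 fold changes of the 7 factors ran from -0.11 to 0.18 in stimulated and from -0.28 to 0.11 in resting cells. Ell2 was at -0.05 ± 0.297 in stimulated and -0.11 ± 0.300 in resting cells (SE).

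Related genes were taken from 4 lists, without the 7 factors. Of 16 further cleavage and polyadenylation factors, 10 rose on stimulation, 4 fell and 2 did not pass, with a median log2 fold change of 0.47, against -0.02 over all genes tested. Papola, the poly(A) polymerase, rose by 0.99 ± 0.0817 (SE, adjusted p = 4.78e-05), to 187 to 223 CPM in stimulated cells, against 88.9 to 108 CPM in resting cells. Nudt21, a subunit of cleavage factor I, rose by 1.18 ± 0.111 (adjusted p = 8.01e-05), and Cpsf2 and Cpsf4, subunits of the same complex as Cpsf3, each rose by 0.86 on the log2 scale. Those that fell were Rbbp6 (-0.63 ± 0.0836, adjusted p = 0.000417), Papolg (-0.48 ± 0.0922, adjusted p = 0.00257), Cstf2t, the paralog of Cstf2 (-0.27 ± 0.0772, adjusted p = 0.0164), and Fip1l1 (-0.20 ± 0.0752, adjusted p = 0.0482). The count that fell was 2 when the 3'PAL deletion or wild-type stimulated library, or the 3'RR deletion, 3'PAL deletion or wild-type resting library, was left out, and also with no filter and with kallisto counts.

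Of 26 further transcription elongation factors, 11 rose, 8 fell and 7 did not pass, with a median log2 fold change of -0.01. Eaf2, a partner of the ELL proteins, rose by 2.57 ± 0.130 (SE, adjusted p = 9.53e-06), to 32.5 to 58.8 CPM in stimulated cells, against 6.59 to 8.72 CPM in resting cells, and its relative Eaf1 rose by 0.80 ± 0.0959. Nelfe, of the pausing complex NELF, rose by 1.19 ± 0.105 and Leo1, of the PAF1 complex, by 0.96 ± 0.0940. Aff1 and Aff4, the scaffolds of the super elongation complex in which ELL proteins sit, fell by 1.72 and 1.02 on the log2 scale, and Hexim1, an inhibitor of the kinase P-TEFb, also fell by 1.02. Ell3, a relative of Ell2, fell to 0.198 to 0.601 CPM in stimulated cells, against 2.72 to 5.06 CPM in resting cells (log2 fold change -3.20 ± 0.333, adjusted p = 0.000132).

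Of 21 further hnRNP and SR splicing regulators, 13 rose, 1 fell and 7 did not pass, with a median of 0.50. Ptbp1 rose by 0.94 ± 0.0893 (SE), Hnrnpa1 by 0.91 ± 0.0987, Grsf1, of the hnRNP F/H family, by 0.85 ± 0.0949 and Srsf1 by 0.82 ± 0.108. Hnrnph1, a close relative of Hnrnpf, was the one that fell (-0.43 ± 0.104, adjusted p = 0.00791), and 2 fell with library size alone, with at least 1 CPM in 4 libraries or with no genotype term. Of 6 U1 snRNP proteins, which mark 5′ splice sites and are known to hold back premature cleavage, Snrpa, Snrpc and Snrnp70 rose by 0.61 to 1.05 on the log2 scale and 3 did not pass. No gene of the 4 lists passed the test in any mutant or hs3b-hs4 comparison.

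**Figure D4:**
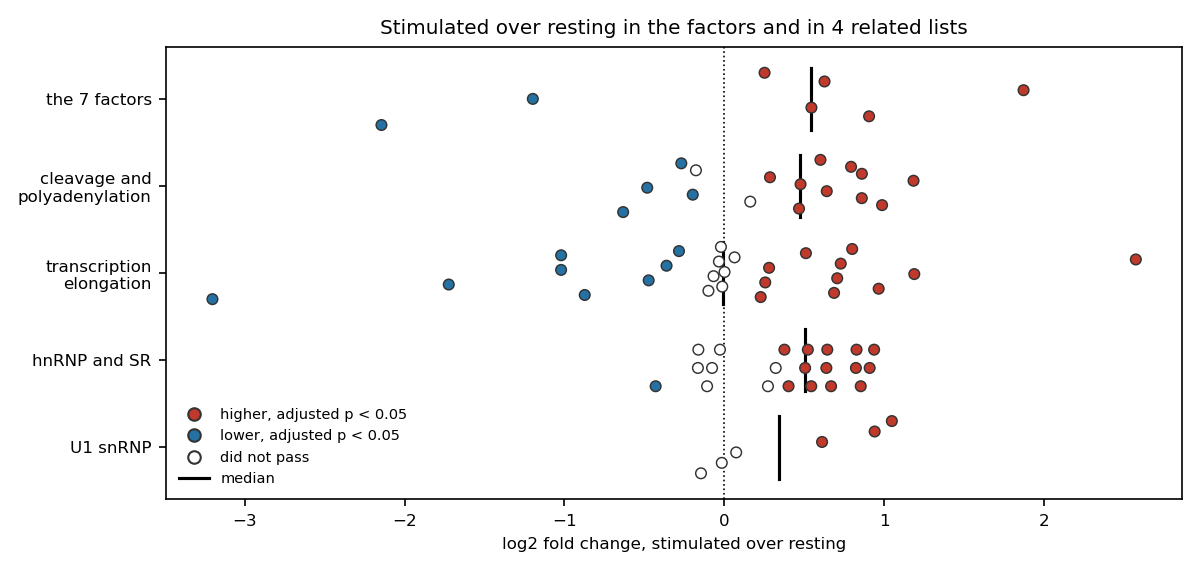
Log2 fold change, stimulated over resting (horizontal axis), of the 7 factors and of the further genes of 4 lists, with 1 point per gene, filled where the adjusted p is under 0.05, and a bar at the median. The medians of the cleavage and polyadenylation, hnRNP and SR, and U1 snRNP lists lie at 0.47, 0.50 and 0.34, and that of the elongation list at -0.01.

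The transcripts of a factor were described by their share of its gene's kallisto estimated counts in each library, with no test. By estimated counts, the main transcripts of Cstf3 were the long coding one of 21 exons (ENSMUST00000028599) and a short one of 3 exons (ENSMUST00000122900). The short one is annotated as intron-retaining and ends inside the gene. Human and mouse cells are known to make short Cstf3 RNA by polyadenylation in an intron. The last 30 bases of both (GENCODE vM21, GRCm38, plus strand) are given to show that each ends behind a canonical hexamer, in capitals.
Cstf3 long transcript, chr2:104665400-104665429: aaaggAATAAAaggacctcaaaaacatgcc
Cstf3 short transcript, chr2:104611377-104611406: gaaAATAAAgctttgttaatacgttgttgt
The long Cstf3 transcript made up 79.2 to 84.0% of the gene in stimulated cells, against 53.8 to 62.1% in resting cells, a mean difference of 23.5 ± 2.84 percentage points (SD, n = 4 genotypes). The short one made up 10.6 to 16.4% in stimulated cells, against 24.8 to 33.5% in resting cells, a difference of -15.3 ± 3.82 points. As shares of TPM, an alternative chosen after seeing the data, it held 8.64 to 14.1% in stimulated cells, against 15.0 to 21.2% in resting cells, and the difference was -6.20 ± 3.73 points, with the smallest, -0.886 points, in the hs3b-hs4 deletion. The ranges did not overlap for the long or the 3-exon transcript, and all 4 genotypes moved the same way. By TPM a further transcript, of 4 exons, held 5.58 to 9.41% in stimulated cells, against 15.8 to 23.4% in resting cells. Its difference was -10.2 ± 2.96 points, so the 3-exon transcript was not the only shorter one with a smaller share.

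The main spliced transcript of Hnrnpf (ENSMUST00000035493) made up 64.2 to 71.7% of the gene in stimulated cells, against 37.1 to 46.6% in resting cells (difference 24.8 ± 7.09 points, SD, n = 4). The single-exon one (ENSMUST00000180341) made up 7.75 to 14.4% in stimulated cells, against 26.1 to 30.2% in resting cells. The long transcript of Pcf11 (16 exons) made up 70.3 to 73.5% in stimulated cells, against 58.4 to 64.6% in resting cells, and the shorter coding one (13 exons) 25.3 to 28.9% in stimulated cells, against 33.7 to 40.2% in resting cells. The share of the long Zfp318 transcript (10 exons) overlapped between the states, at 77.9 to 85.2% in stimulated and 74.1 to 82.5% in resting cells. Within each of the 4 genotypes it was higher in stimulated cells, by 2.93 ± 0.639 points (SD, n = 4). As shares of TPM the difference was 5.92 ± 1.34 points. Ell2 and Cpsf3 have 1 transcript each in the deposited table. The libraries hold total RNA, which includes unspliced RNA.

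**Figure D5:**
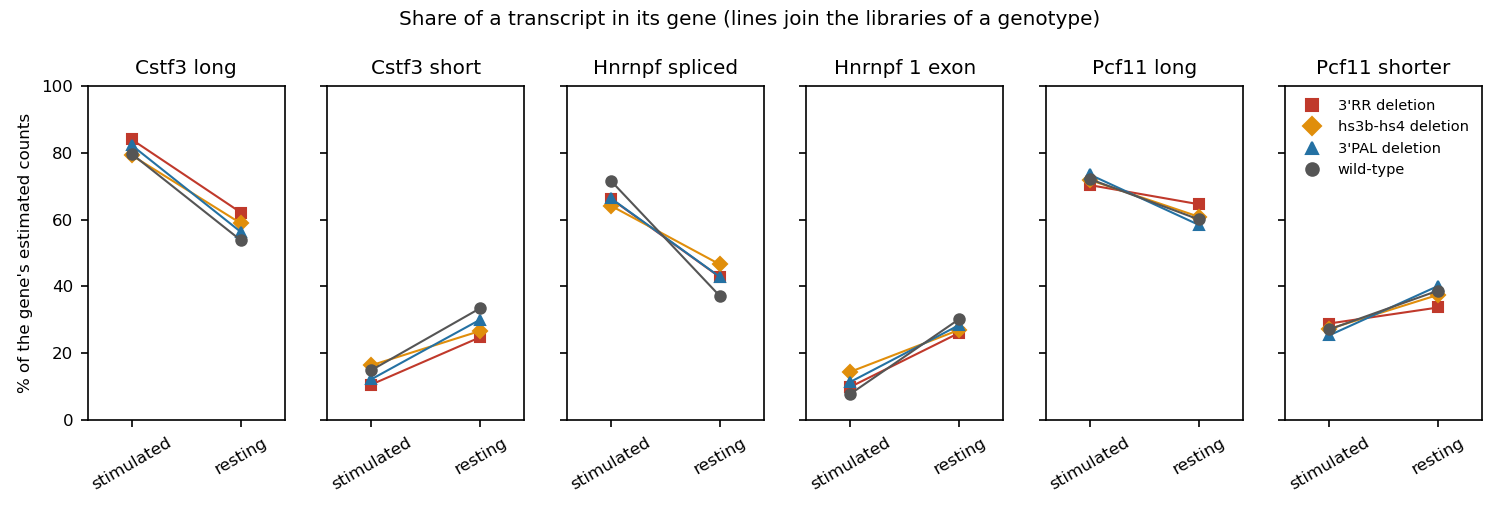
Share of 6 transcripts in their gene's estimated counts (vertical axis, percent) in stimulated (left) and resting (right) libraries, with lines that join the libraries of a genotype. The long Cstf3 and the spliced Hnrnpf transcript hold larger shares in stimulated cells in all 4 genotypes, and the short Cstf3 and the single-exon Hnrnpf transcript smaller ones.

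The heavy chain transcripts themselves were read within each library. Of the Ighm TPM in both forms together, the secreted one held 64.4% (3'RR deletion), 86.6% (hs3b-hs4 deletion), 71.6% (3'PAL deletion) and 83.4% (wild-type) in stimulated cells, against 26.8% (3'RR deletion), 75.7% (hs3b-hs4 deletion), 28.6% (3'PAL deletion) and 35.1% (wild-type) in resting cells. Among resting cells the hs3b-hs4 deletion library, at 75.7%, thus stood apart in the secreted share. Its Ell2 level was 51.1 CPM, within the range of the other resting libraries. Its plasma cell marker sum of 1829 CPM was the highest, against 956 to 1633 CPM in the other resting libraries. The part of either in the secreted share was not tested. Per 100 TPM of membrane Ighm there were 3.44 to 5.14 TPM of the Ighd membrane form in stimulated cells, against 19.9 to 23.6 TPM in resting cells.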

How the data were processed

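Total RNA of 8 libraries was depleted of ribosomal RNA and sequenced from stranded paired-end libraries, per the labels' protocols. The gene table holds raw counts that the authors made with STAR 2.4.0a and featureCounts (Subread 1.4.6-p1) on mm10/GRCm38, per the submitters' processing notes. For each transcript the authors deposited estimated counts and TPM from kallisto 0.42.3. The annotation version, the strand setting and how reads with several positions were treated are not stated in these sources.

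Counts were scaled by TMM and tested with edgeR 4.0.16 (R 4.3.3) after filterByExpr, which left 14789 genes. Stimulation and each mutant were tested in 1 additive fit of genotype and state (biological coefficient of variation 16.0%, 3 residual degrees of freedom). The hs3b-hs4 comparisons used 4 groups of 2 libraries (25.8%, 4 residual degrees of freedom). P values carry the Benjamini-Hochberg adjustment over the 14789 genes and were called under 0.05. In the additive fit a change is judged against the departure of the libraries from additive effects of genotype and state. In the fit with 4 groups it is judged against the difference between the 2 genotypes of a group. Neither is a spread between replicates, since no genotype has replicates within a state. Ratios of 2 libraries carry exact conditional binomial 95% intervals, which cover counting error only. TPM was compared only within a library. Alternatives were other scaling (relative log expression, library size), DESeq2 1.42.0, other filters, kallisto gene sums rounded to whole numbers, no genotype term and leaving out each library. The scripts were tested on simulated counts.

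The 7 factors and all lists were chosen with earlier results of these data known. Named besides the factors were, per list and direction, at most 4 genes with the lowest adjusted p. Sequences came from GENCODE vM21 and RefSeq. Protein sequences were not used here. The list of U1 snRNP proteins was shortened after its values were seen, since 1 gene is not reported here. Entries without a gene name held at most 0.0342% of a library's counts and were left out.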

Additional observations from a re-analysis of the deposited data

Results flagged for a closer look

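Among resting libraries the hs3b-hs4 deletion library had a secreted share of Ighm TPM of 75.7%, far from the other 3 at 26.8 to 35.1%. Chance sets such a library apart in about 1 in 20 groups, and 32 groups of 4 were looked at.

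For 3 factors a mutant's ratio to wild-type lay on opposite sides of 1 in the 2 states, with both counting intervals clear of 1. The rule was applied to 21 pairs of a factor and a mutant. How many of all genes meet it was not counted. Zfp318 had 1.28 in stimulated and 0.742 in resting cells of the 3'RR deletion, 1.25 in stimulated and 0.704 in resting cells of the hs3b-hs4 deletion, and 1.68 in stimulated and 0.759 in resting cells of the 3'PAL deletion. Cstf2 had 0.734 in stimulated and 1.13 in resting cells of the 3'PAL deletion. Hnrnpf had 0.764 in stimulated and 1.14 in resting cells of the 3'PAL deletion, and 0.969 in stimulated and 1.05 in resting cells of the hs3b-hs4 deletion. The difference between states was not tested for a single mutant, which has 1 library per state, and all these ratios share the wild-type libraries. With scaling by library size alone, the resting ratio in the 3'PAL deletion was 0.992 for Cstf2 and 1.01 for Hnrnpf. With kallisto counts that of Hnrnpf was 1.03 in the 3'PAL deletion and 0.970 in the hs3b-hs4 deletion.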

How the results depend on the processing

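On stimulation 7 factors passed in the main fit and 6 to 7 when 1 library was left out, and their directions held in all 15 alternatives. Counts of genes called in the mutants moved more. For the 3'RR deletion, 278 genes became 531 in DESeq2, 657 with no filter and 71 to 360 when 1 library was left out, the fewest without its own resting library. For the hs3b-hs4 deletion, 20 became 180 in DESeq2, 189 with no filter, 35 with kallisto counts and 1 to 43 when 1 library was left out, the fewest without its own resting library. For the 3'PAL deletion, 76 became 257 in DESeq2, 313 with no filter, 37 with at least 1 CPM in 4 libraries and 3 to 110 when 1 library was left out, the fewest without the wild-type resting library, and the factors called went from 0 to 1 (Ell2) in DESeq2 and with no filter. For genotypes lacking hs3b and hs4, the 0 genes called became 69 in DESeq2 and 71 with no filter in resting cells, 7 in DESeq2, 8 with no filter and 1 with library size alone in stimulated cells, and 2 in DESeq2 for the interaction. The cause was not tested. Of 588 values of factors that did not pass, 48 changed sign in an alternative. With shares of TPM, chosen after seeing the data, the difference of the short Cstf3 transcript was -6.20 points and that of the long one 29.5. The labels carry no replicate numbers, and stimulated and resting libraries are paired by genotype, which the main fit of stimulation holds as a term. Adding it to the hs3b-hs4 interaction left 0 genes called. The term for stimulation in the mutants could not be fitted without a wild-type library. With 1 library per genotype and state, small changes in a mutant are beyond these data.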
